A study of Homo sapiens with 10 samples.

Results

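The genes described here belong to the unfolded protein response and to endoplasmic reticulum-associated degradation (ERAD). They are a list of 42 genes chosen by function and found by symbol in the count table. All 42 were present among its 33551 rows and all 42 passed the filter on low counts, DERL3 with only 0 to 21 counts per library. The cells were A549, an established line from a human lung adenocarcinoma, in 5 versions: wild type (WT), a line whose label gives an ABCA3 knockout (KO), and lines with the ABCA3 missense variants L101P, E292V or E690K. ABCA3 carries lipids into the organelles where alveolar type 2 cells keep surfactant. Pathogenic variants are classed as type 1, in which the protein is misfolded and held back (L101P), or type 2, in which it reaches its place but works poorly (E292V and E690K). Each line was sequenced once untreated and once after overnight exposure to a VSVG lentivirus for ABCA3:GFP (20 infectious units per cell), which gave 10 libraries and no replicate of any line and treatment. Each genotype was 1 line, so line and genotype cannot be told apart.

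Proteins that enter the endoplasmic reticulum (ER) are folded there by chaperones, lectins and oxidoreductases, and those that fail are drawn back to the cytosol and destroyed by ERAD. When unfolded proteins accumulate, membrane sensors answer: ATF6 is cut to release a transcription factor, IRE1 (gene ERN1) splices the XBP1 messenger, and PERK (gene EIF2AK3) phosphorylates the translation factor eIF2, which favours translation of ATF4 and then expression of DDIT3 (CHOP). ATF6 and XBP1 drive chaperone and ERAD genes, whereas ATF4 drives amino acid and stress genes such as ASNS, TRIB3 and CHAC1. Other kinases of eIF2, for example in amino acid shortage, also act through ATF4, and this shared route is called the integrated stress response.

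These branches read different short sequences near the start of their targets, and examples are shown for genes of both branches. The motifs do not sort the genes into groups: HERPUD1 held both an ERSE-II and a CARE core, and 28 of 39 genes held neither ERSE nor ERSE-II. RefSeq promoter windows (GRCh38.p14, 250 bases before to 50 bases after the annotated start) were found for 39 of the 42 genes. PDIA3, DERL1 and DERL3 were not matched. Both strands were searched. The ER stress element (ERSE, CCAAT and CCACG with 9 bases of any kind between them) was found for 8 of 39 genes (20.5%), against 0.0916% of all 27305 genes with a window. ERSE-II (ATTGG and CCACG with any 1 base between them) was found for 3 (7.69% against 0.0696%). The core of the UPR element (TGACGTGG) was found for 2, HYOU1 and VCP (5.13% against 0.927%), and in HYOU1 it overlapped an ERSE-II. The core of the C/EBP-ATF response element (CARE, TGATGNAA) was found for 4 (10.3% against 4.46%). A match describes the letters and is not a shown binding site, and no match says only that these letters are not in the window. Written 5′ to 3′ on the strand of the gene, with the matched letters in capitals (a match on the opposite strand appears as its reverse complement), the examples read:
HSPA5: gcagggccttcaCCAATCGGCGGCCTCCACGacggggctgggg
HSP90B1: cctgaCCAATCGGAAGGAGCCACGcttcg
CRELD2: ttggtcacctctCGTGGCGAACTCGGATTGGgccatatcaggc
CALR: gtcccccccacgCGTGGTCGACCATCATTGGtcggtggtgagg
XBP1: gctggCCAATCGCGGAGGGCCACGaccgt
SDF2L1: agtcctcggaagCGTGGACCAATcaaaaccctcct
HERPUD1: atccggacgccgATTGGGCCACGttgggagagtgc
ASNS: aggcaTGATGAAActtcc
CHAC1: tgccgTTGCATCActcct

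An ERSE is shown for HSPA5 (chr9:125241379-125241421, minus strand), HSP90B1 (chr12:103930211-103930239, plus), CRELD2 (chr22:49918542-49918584, plus), CALR (chr19:12938372-12938414, plus) and XBP1 (chr22:28800598-28800626, minus). HSP90B1 held a further ERSE match 89 bases before its RefSeq start, and CANX, PDIA6 and ERO1B held the others. An ERSE-II is shown for SDF2L1 (chr22:21642102-21642136, plus) and HERPUD1 (chr16:56932013-56932047, plus), and HYOU1 held matches 185 and 79 bases before its start. A CARE core is shown for ASNS (chr7:97872464-97872481, minus) and CHAC1 (chr15:40953257-40953274, plus), and CREB3L2 and HERPUD1 held the others. Distances are from the RefSeq start, which can differ from that of GENCODE 29. By GENCODE 29 the printed stretches of HSP90B1, ASNS and CHAC1 overlap an exon, and that of CRELD2 lies inside the gene span.

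Library totals ran from 59430095 counts (L101P untreated) to 96811421 (L101P transduced). Levels are CPM with trimmed-mean (TMM) library scaling, and where a pair of values stands for a line, the untreated library comes first. ABCA3 and the EGFP row, read first as checks, went against the labels of the KO pair: ABCA3 was at 600 and 26.0 CPM there, with 356 and 602 in WT, and EGFP was at 37.9 and 0.050 CPM. Results that use this pair therefore hold for the libraries as labelled. ABCA3 in the missense lines was at 1151 and 922 CPM (L101P), 965 and 1021 (E292V), and 900 and 994 (E690K), all above both WT libraries. The part of this difference in the results was not tested. EGFP was also counted in the other 4 untreated libraries, at 1.01 to 69.7 CPM. The pairs were 69.7 and 151 CPM in WT, 1.01 and 36.9 in L101P, 20.2 and 66.0 in E292V, and 16.5 and 18.5 in E690K. The labels therefore do not set vector exposure apart equally in each line. All 5 epithelial marker genes were present (5364 to 11797 CPM in sum), whereas the 9 alveolar type 2 markers summed to 1.42 to 2.35 CPM.

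The ER genes were abundant and varied little. Per kilobase of exon, the median level over the libraries was 222 CPM for HSP90B1 (the chaperone GRP94), 182 for the lectin chaperone CALR, 154 for HSPA5 (BiP, the central Hsp70 of the ER lumen), 145 for CANX and 141 for the ERAD ATPase VCP. ATF4 ranked 7 of 42, at 129 CPM per kilobase. CHAC1, an enzyme that degrades glutathione, stood at 1.32, and DERL3, a Derlin of the ERAD machinery, at 0.011. The ratio of the highest to the lowest library had a median of 1.27 over the 41 genes without a zero. Over the 16355 tested genes without a zero, which were not matched for level, it was 1.499. A trait particular to the list cannot be read from this. By role, the median ratio was 1.25 for 9 chaperones, 1.23 for 8 lectins and oxidoreductases and 1.22 for 10 ERAD genes. It was 1.41 for 8 sensors and transcription factors, and 2.32 for 4 outputs of ATF4 and DDIT3. VCP had the narrowest range (1.09) and CHAC1 the widest (4.15).

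**Figure D1:**
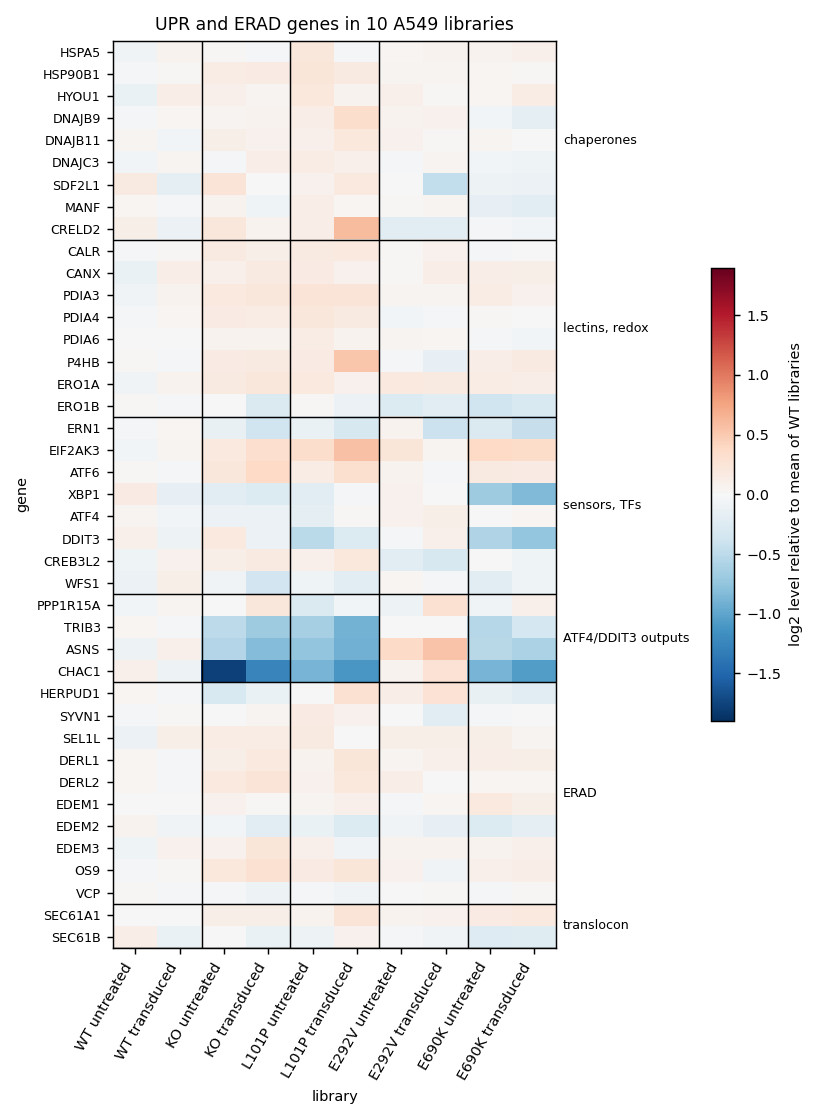
Level of 41 genes of the list (rows, by role; DERL3 is not shown) in each of the 10 libraries (columns), as log2 of the scaled CPM relative to the mean of the WT libraries. TRIB3, ASNS and CHAC1 are low in the KO, L101P and E690K libraries and XBP1 in the E690K libraries, while ASNS is high in the E292V libraries.

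Whether the lines differed at all was asked with 1 test over the 5 lines, with the vector as an additive term. It called 6 of the 42 genes (edgeR adjusted p under 0.05), where it called 13% of all 17978 genes tested, so the share was close to the background. They were ASNS (adjusted p 6.95e-05), TRIB3 (0.000773), CHAC1 (0.00117), XBP1 (0.00146), DDIT3 (0.0323) and CREB3L2 (0.0420). Unadjusted, 15 had a p under 0.05, where 25.7% of all genes did. No chaperone, lectin, oxidoreductase, ERAD or translocon gene was called. DESeq2 called 14, adding HSP90B1, CRELD2, PDIA3, PDIA4, P4HB, ATF6, HERPUD1 and OS9, where it called 19% of all genes.

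HSPA5 (chromosome 9, 125234853 to 125241330, minus strand, GENCODE 29 on GRCh38) is a usual reporter of ER stress. It was at 558 and 608 CPM in WT, while KO gave 591 and 573, L101P 675 and 573, E292V 599 and 609, and E690K 613 and 623. The lines overlapped, and the highest library was 1.21 times the lowest. The log2 fold change against WT was 0.10 for L101P (95% interval -0.09 to 0.28), -0.0037 for KO (-0.19 to 0.18), 0.05 for E292V (-0.14 to 0.24) and 0.08 for E690K (-0.10 to 0.27). In bulk RNA, fewer responding cells and less transcript per cell cannot be told apart.

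DNAJB9 (ERdj4), a co-chaperone of HSPA5 induced through XBP1, was at 12.7 and 13.3 CPM in WT. KO gave 13.5 and 13.7, L101P 14.3 and 16.4, E292V 13.6 and 13.8, and E690K 12.6 and 11.5. The L101P libraries were the highest, but no line contrast passed (log2 fold change 0.24 in L101P, edgeR adjusted p 0.322). CRELD2, a secreted protein of the ER stress response, was at 29.2 and 24.9 CPM in WT, while KO gave 31.3 and 28.1, L101P 29.5 and 40.9, E292V 23.3 and 23.5, and E690K 26.2 and 26.1. Its transduced L101P library stood above all others, and the untreated one lay among them.

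The remaining chaperones kept narrow ranges. The nucleotide exchange factor HYOU1 was at 110 to 138 CPM, the co-chaperones DNAJB11 and DNAJC3 at 38.7 to 46.0 and 40.5 to 47.2, and the secreted factor MANF at 44.5 to 56.3. SDF2L1, a partner of HSPA5 complexes, was wider, at 18.6 to 30.8 CPM. HSP90B1 lay between 989 CPM in untreated WT and 1182 in untreated L101P cells. For the 9 chaperones the median log2 fold change against WT was 0.14 for L101P, with 9 above 0 and 0 called. Within a treatment HSPA5 (0.27 untreated, -0.09 transduced), HYOU1 (0.32 and -0.05) and SDF2L1 (-0.09 and 0.36) differed in sign, and untreated WT was the lowest library for HSPA5, HSP90B1 and HYOU1. The median was 0.06 for KO, 0.04 for E292V and -0.05 for E690K, and the medians of all tested genes were -0.02 to -0.00065.

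No lectin or oxidoreductase was called against WT either. CALR and CANX hold glycoproteins during folding, PDIA3, PDIA4, PDIA6 and P4HB form and shuffle disulfide bonds, and ERO1A and ERO1B reoxidise them. Their median log2 fold change was 0.16 for L101P, 0.15 for KO, 0.05 for E292V and 0.06 for E690K, with 0 of 8 called each time. P4HB (chromosome 17, 81843159 to 81860694, minus strand) was at 647 and 632 CPM in WT, while KO gave 715 and 717, L101P 713 and 919, E292V 630 and 576, and E690K 699 and 717. The transduced L101P library stood above all others, and the untreated one among those of KO and E690K. Against WT the L101P value was 0.35 (SE 0.10, edgeR adjusted p 0.0783), and that of PDIA3 was 0.25 (SE 0.07, adjusted p 0.0823). The others ranged from 467 to 541 CPM (CALR), 761 to 943 (CANX), 280 to 348 (PDIA3), 324 to 390 (PDIA4), 206 to 235 (PDIA6), 84.5 to 104 (ERO1A) and 8.73 to 11.5 (ERO1B).

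Among ERAD genes, HERPUD1 scaffolds the membrane complex, SYVN1 with SEL1L is its ubiquitin ligase, the Derlins and EDEM proteins take part in retrotranslocation and mannose trimming, OS9 is a lectin and VCP extracts the substrate. Of the 11, 0 were called in any contrast with WT, and the medians were 0.12 for L101P, 0.13 for KO, 0.04 for E690K and 0.02 for E292V. HERPUD1 (chromosome 16, 56932048 to 56944863, plus strand) was at 33.6 and 32.1 CPM in WT, while KO gave 26.9 and 30.1, L101P 32.6 and 40.2, E292V 35.7 and 39.8, and E690K 29.9 and 28.5. The KO and E690K libraries lay below the other 6. Over the lines it missed the threshold (edgeR adjusted p 0.0526) and passed under 9 of 22 alternatives.

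Ranges of the other ERAD genes were narrow. SYVN1 was at 52.3 to 67.6 CPM, SEL1L at 139 to 169, DERL1 at 54.8 to 66.2, DERL2 at 56.9 to 68.8, EDEM1 at 59.9 to 69.2, EDEM2 at 59.4 to 74.8, EDEM3 at 41.8 to 51.5, OS9 at 157 to 200 and VCP at 729 to 797. The translocon subunits SEC61A1 and SEC61B, of the channel into the ER, were at 243 to 291.7 and 76.3 to 99.0 CPM.

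The transcription factors differed more. XBP1 (chromosome 22, 28794555 to 28800597, minus strand) was at 83.9 and 68.3 CPM in WT, while KO gave 65.1 and 63.5, L101P 66.1 and 74.9, E292V 79.8 and 75.2, and E690K 47.3 and 42.4. Both E690K libraries lay below the other 8. The E690K line differed from WT by -0.76 on the log2 scale (SE 0.10, edgeR adjusted p 0.00112), a call that held under all 20 alternatives. Gene-level counts do not separate spliced from unspliced XBP1, so they give the amount of messenger and not the activity of IRE1.

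DDIT3 (chromosome 12, 57516588 to 57521737, minus strand) encodes CHOP, a factor of prolonged ER stress. It was at 9.53 and 8.29 CPM in WT, while KO gave 10.1 and 8.25, L101P 6.25 and 7.41, E292V 8.65 and 9.51, and E690K 5.95 and 5.35. The L101P and E690K libraries lay below the other 6. E690K passed, at -0.66 (SE 0.16, edgeR adjusted p 0.0364), but not without any 1 of the WT or E690K libraries (0.0789 to 0.288). L101P did not pass, at -0.38 (adjusted p 0.241).

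ATF4 (chromosome 22, 39519695 to 39522685, plus strand) was at 335 and 309 CPM in WT, while KO gave 297 and 298, L101P 284 and 328, E292V 340 and 346, and E690K 320 and 329. The lines overlapped, and the test over them gave an edgeR adjusted p of 0.396. ATF4 is controlled largely at translation, which transcript counts do not measure.

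CREB3L2 (chromosome 7, 137874979 to 138002067, minus strand), a transcription factor held in the ER membrane like ATF6, was at 44.9 and 50.7 CPM in WT. KO gave 51.6 and 53.6, L101P 51.1 and 54.8, E292V 41.6 and 38.7, and E690K 47.6 and 45.2. The E292V libraries were the lowest. Its call over the lines was lost under 10 of 22 alternatives. Of the sensors, EIF2AK3 had 0.45 in L101P (SE 0.12, edgeR adjusted p 0.0610) and 0.36 in E690K (0.110), ATF6 had 0.30 in KO (0.116), and ERN1 had -0.36 in E690K (0.11). Their levels were 12.2 to 18.4 CPM (EIF2AK3), 58.8 to 77.9 (ATF6) and 21.1 to 29.9 (ERN1), and WFS1, an ER membrane protein that restrains ATF6, was at 27.7 to 38.6.

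**Figure D2:**
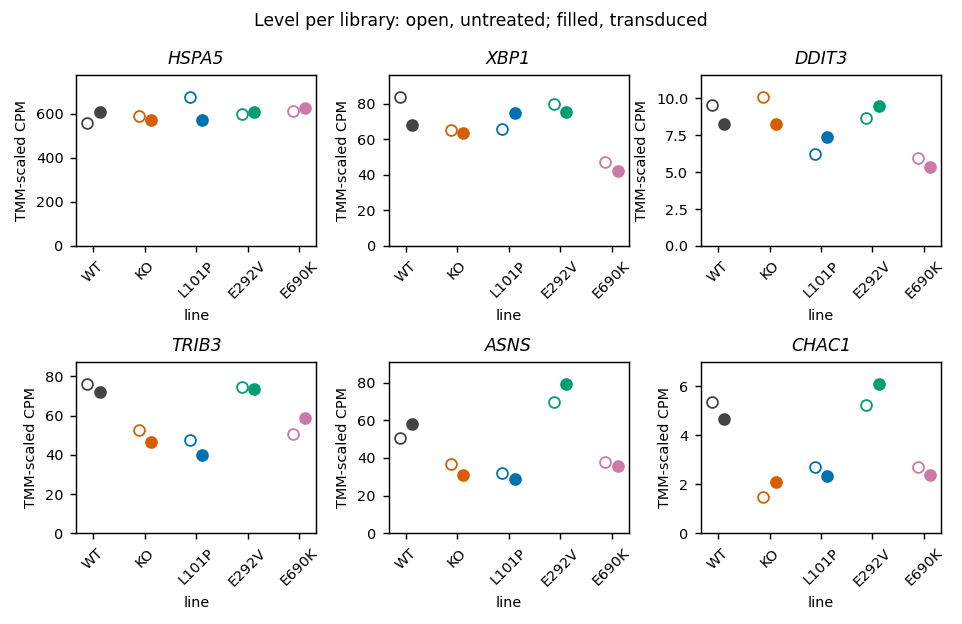
Scaled CPM (vertical axes, from 0) of HSPA5, XBP1, DDIT3, TRIB3, ASNS and CHAC1 by line, each point 1 library, open for untreated and filled for transduced cells. HSPA5 lies between 558 and 675 in all lines, XBP1 is lowest in E690K (47.3 and 42.4), and ASNS is highest in E292V (69.6 and 79.2).

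Genes downstream of ATF4 and DDIT3 carried most of the calls. ASNS, asparagine synthetase (chromosome 7, 97852118 to 97872542, minus strand), was at 50.7 and 58.3 CPM in WT, while KO gave 36.9 and 30.8, L101P 32.2 and 28.99, E292V 69.6 and 79.2, and E690K 37.6 and 35.8. All KO, L101P and E690K libraries lay below WT, and both E292V libraries above it.

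TRIB3 is a pseudokinase that restrains ATF4 and DDIT3 (chromosome 20, 362835 to 397559, plus strand). It was at 76.0 and 72.2 CPM in WT, while KO gave 52.6 and 46.6, L101P 47.7 and 39.9, E292V 74.4 and 73.6, and E690K 50.7 and 58.6. CHAC1 (chromosome 15, 40952962 to 40956519, plus strand) was at 5.37 and 4.69 CPM in WT, while KO gave 1.47 and 2.11, L101P 2.71 and 2.34, E292V 5.23 and 6.09, and E690K 2.72 and 2.39, from 110 to 585 counts. For TRIB3, ASNS and CHAC1 alike, the WT and E292V libraries lay above the other 6. PPP1R15A (GADD34), which reverses the phosphorylation of eIF2, was at 35.9 to 53.3 CPM and did not show this split.

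KO had 3 of 42 genes lower than WT and 0 higher, where 1.8% of all genes were called, 0.99% lower and 0.807% higher. CHAC1 had -1.49 (SE 0.23, edgeR adjusted p 0.00724), ASNS -0.69 (SE 0.11, 0.0105) and TRIB3 -0.58 (SE 0.10, 0.0144). Unadjusted, 11 had a p under 0.05, where 14.1% of all genes did. The same 3 were called with the labels of the KO pair exchanged, where 0.79% of all genes were. Without any 1 of the WT or KO libraries only 1 of the 3 was called, ASNS without the untreated library of either line and CHAC1 without the transduced one, while TRIB3 had adjusted p 0.0573 to 0.297. In those fits the share of all genes called fell as well, from 1.8% to between 0.131% and 0.774%. ATF6 was also called, as higher, by DESeq2 and without a filter on low counts (4 called, 4.14% and 4.05% of all genes). ATF6 and OS9 were called as higher without either or both L101P libraries (5 called, 6.34% to 6.43% of all genes).

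L101P had 3 of 42 lower and 0 higher, where 3.94% of all genes were called, 1.61% lower and 2.33% higher. TRIB3 had -0.76 (SE 0.10, edgeR adjusted p 0.00234) and ASNS -0.83 (SE 0.11, 0.00250), both called under all 20 alternatives. CHAC1 had -0.996 (SE 0.23, 0.0302) and was lost without either WT library, the transduced L101P library or the E690K pair (0.0628 to 0.207). Unadjusted, 15 had a p under 0.05, where 18.3% of all genes did. Of the 42 genes 29 were above 0, with 30 in E292V, 28 in KO and 21 in E690K, so this lean was not particular to L101P. The median was 0.12 in L101P, where that of all genes was -0.01. It was 0.08 in KO, 0.04 in E292V and -0.0034 in E690K. DESeq2 called 7, adding HSP90B1, PDIA3, P4HB and EIF2AK3 as higher, with 6.88% of all genes called. Without a filter on low counts edgeR called 6, adding CRELD2, P4HB and EIF2AK3, with 5.93% of all genes called. CRELD2, P4HB and EIF2AK3 also passed without the untreated L101P library (10.3% of all genes called), and P4HB and EIF2AK3 without the untreated E292V library (5 called, 4.43% of all genes).

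E690K had 5 of 42 lower and 0 higher, where 5.38% of all genes were called, 2.33% lower and 3.05% higher. Beside XBP1 and DDIT3 they were CHAC1 (-0.98, SE 0.23, edgeR adjusted p 0.0264), ASNS (-0.57, SE 0.11, 0.0126) and TRIB3 (-0.44, SE 0.10, 0.0282). Unadjusted, 12 had a p under 0.05, where 19.3% of all genes did. With the KO labels exchanged, or without the KO pair, XBP1, ASNS and CHAC1 were called (3 genes), where 3.33% and 3.6% of all genes were. Without any 1 of the WT or E690K libraries 1 or 2 were called, each time with XBP1, where 0.883% to 3.26% of all genes were. Without either L101P library 8 were called, where 11.2% of all genes were. All these contrasts share the WT libraries, so the return of the same genes is not independent.

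E292V had 0 of 42 called, where 1.05% of all genes were, 0.295% higher and 0.756% lower. Unadjusted, 3 had a p under 0.05 (ASNS, CREB3L2 and ERO1A), where 10.3% of all genes did. ASNS had 0.45 (SE 0.11, edgeR adjusted p 0.0972) and passed under DESeq2, without a filter on low counts, and without either or both L101P libraries. CREB3L2 had -0.25. DERL3 had -1.33, from 2 and 3 counts in E292V and 10 and 0 in WT.

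**Figure D3:**
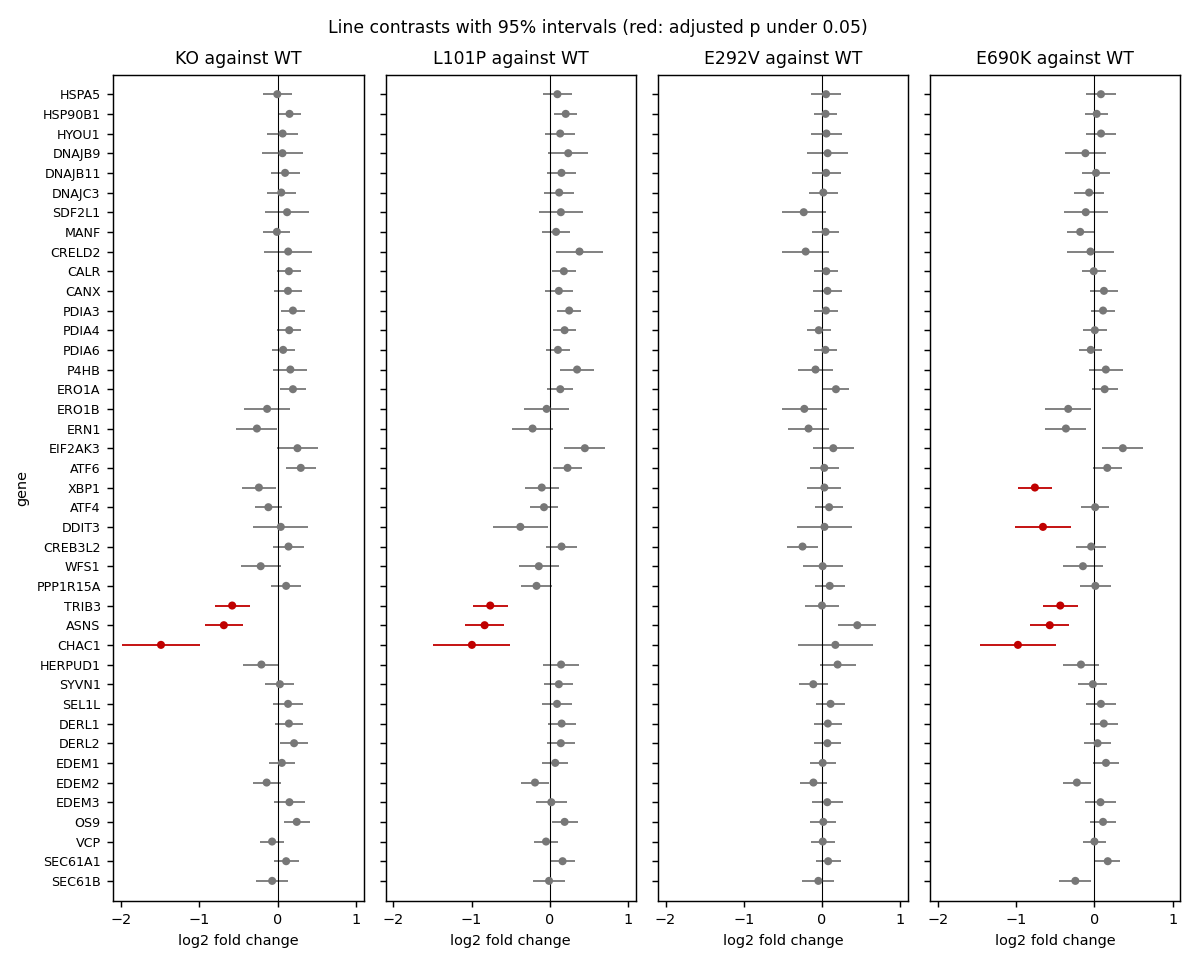
Log2 fold change against WT (horizontal axis, with 95% intervals) of 41 genes of the list (vertical axis; DERL3 is not shown) in the 4 line contrasts, red where the edgeR adjusted p was under 0.05. TRIB3, ASNS and CHAC1 are red in KO, L101P and E690K, XBP1 and DDIT3 in E690K alone of the 4, and no gene in E292V.

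The difference from E292V was then tested directly. L101P against E292V alone gave -1.28 for ASNS (SE 0.11, edgeR adjusted p 4e-05), -0.76 for TRIB3 (SE 0.10, 0.000474) and -1.17 for CHAC1 (SE 0.23, 0.0046), where 13.8% of all genes were called. The contrasts of KO and E690K with E292V were added after the values had been seen, and called 5 and 6 of the 42 genes, where 10.7% and 10.4% of all genes were called. In KO, ASNS had -1.14 (adjusted p 0.000121), CHAC1 -1.66 (0.000779) and TRIB3 -0.58 (0.00337, and 0.0759 without the transduced KO library). In E690K, ASNS had -1.02 (0.000161), CHAC1 -1.15 (0.00607) and TRIB3 -0.43 (0.0166). TRIB3 was lost there without the transduced E292V or the untreated E690K library (0.149 and 0.273), and CHAC1 without the transduced library of either line (0.0728 and 0.0983). HERPUD1 was lower than in E292V in both, by -0.41 in KO (adjusted p 0.0292) and -0.37 in E690K (0.0443). The other calls were CREB3L2, higher in KO (0.39, 0.0157), and XBP1 (-0.79, 0.000404) and DDIT3 (-0.69, 0.0173), lower in E690K.

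Markers of other cell types moved with the same lines. The 6 fibroblast genes, of which 4 or 5 had a count in each library and COL1A1 led, summed to 96.9 and 148 CPM in E292V, 46.9 and 67.0 in WT, and 24.4 to 43.9 in the other 6 libraries. The 4 basal cell genes, led by KRT15, summed to 9.93 and 9.35 CPM in E292V, 10.4 and 13.3 in WT, and 17.5 to 41.7 in the others. The epithelial sum was 5879 and 5364 CPM in E292V, 6835 and 6268 in WT, and 7474 to 11797 in the others. Single genes did not all follow these sums. Of 4 fibroblast genes tested, 1 was above WT and 3 below in KO (log2 fold change -1.26 to 0.91). E690K had the same counts (-2.53 to 1.02). In E292V 2 of the 4 basal genes were above WT and 2 below, and of the 5 epithelial genes 2 and 3. The part of these markers in the result was not tested.

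The type 1 line was compared with the mean of the type 2 lines. It had 2 of 42 genes higher and 2 lower, where 5.79% of all genes were called, 3.75% higher and 2.04% lower. CRELD2 was higher by 0.51 (SE 0.12, edgeR adjusted p 0.0267) and CREB3L2 by 0.29 (SE 0.08, 0.0438), and ASNS had -0.77 (SE 0.10, 0.00164) and TRIB3 -0.54 (SE 0.09, 0.00508). Unadjusted, 15 had a p under 0.05, where 19% of all genes did. CRELD2 (chromosome 22, 49918167 to 49927540, plus strand) had 0.20 without the transduced L101P library (adjusted p 0.53), and was also lost without the transduced E292V or either E690K library (0.0641 to 0.116). CREB3L2 was lost under 9 of 21 alternatives. HSPA5 had 0.03 (95% interval -0.13 to 0.19). The 9 chaperones had a median of 0.15, with 9 above 0 and 1 called.

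The calls against the single type 2 lines differed, and so did the share of all genes called. Against E292V alone 7 genes were called: CRELD2 (0.59), P4HB (0.43), CREB3L2 (0.40) and PDIA4 (0.23) were higher in L101P, and ASNS, CHAC1 and TRIB3 lower. Against E690K alone, where 0.69% of all genes were called, XBP1 was the 1 gene called, higher in L101P by 0.66 (SE 0.10, edgeR adjusted p 0.0163). TRIB3 had -0.33 (0.219) and ASNS -0.26 (0.434) in that contrast. With 1 line of type 1, variant type and line cannot be told apart.

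EGFP set the labelled pairs apart unevenly, with 16.5 and 18.5 CPM in E690K, 69.7 and 151 in WT, and a reversed pair in KO. The vector comparison therefore holds for the libraries as labelled. In DESeq2 it called 0 of the 42 genes, where 0.629% of all genes were called. In edgeR over the 5 pairs it called 0 of the 42 and 0 of all 17978 (0%). Unadjusted, 3 had a p under 0.05, where 6.88% of all genes did: PPP1R15A (0.21, SE 0.06, adjusted p 0.351), SDF2L1 (-0.20) and ERN1 (-0.19). PPP1R15A was higher in the library labelled transduced in 5 of 5 lines, by 0.09 in WT to 0.39 in E292V, and in 4 of 5 with the KO labels exchanged (0.20 as labelled). DERL3 had the largest fitted value (0.75). HSPA5 had -0.02 (95% interval -0.14 to 0.10).

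EGFP was at 1.01 and 36.9 CPM in the L101P pair, while the other untreated libraries held more of it and the KO pair was reversed. A difference between lines and one in vector exposure therefore cannot be told apart here. An interaction term asked whether the labelled pair of L101P differed otherwise than the pairs of the other lines. It called 1 of 42 genes as higher, P4HB, and 0 as lower, where 2.39% of 19236 genes were called, 1.61% higher and 0.775% lower. P4HB changed by 0.37 on the log2 scale in L101P and by -0.13 to 0.04 in the other lines (interaction 0.39, SE 0.11, edgeR adjusted p 0.0471). The call was lost under 13 of 18 alternatives, among them the exchange of the KO labels (0.113) and the fits without either library of WT, E292V or E690K (0.0503 to 0.0695). CRELD2 had 0.56 (SE 0.15, adjusted p 0.0501). HSPA5 had -0.27 (SE 0.11, 0.208). Unadjusted, 6 had a p under 0.05, where 15% of all genes did. DERL3 had a fitted 7.31, which is no bound on a fold, since L101P had 0 and 21 counts. The transduced L101P library was the deepest. It had the highest sums of epithelial (11797 CPM), basal (41.7) and immune (50.6) markers and the lowest of fibroblast markers (24.4). Of the immune sum CD68 alone gave 44.2 CPM, and 3 of the 5 immune genes had a count there. The part of all these markers in the result was not tested.

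**Figure D4:**
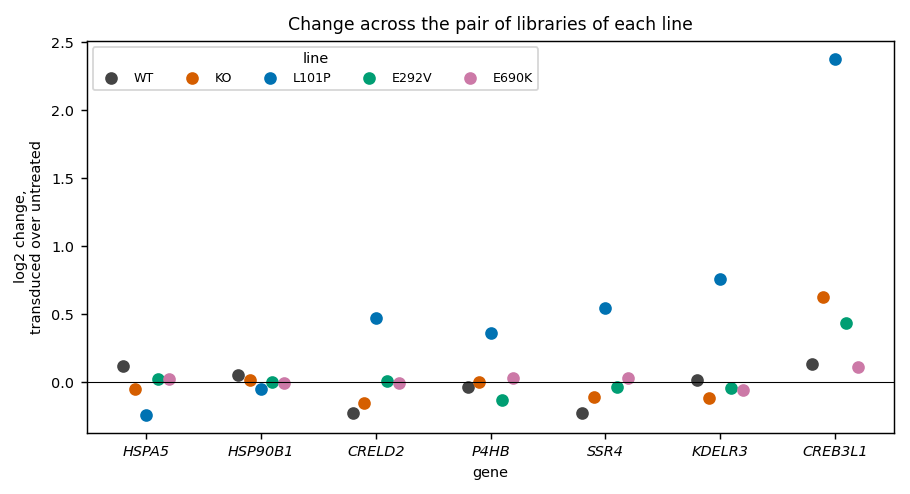
Transduced over untreated library (log2 of the ratio of scaled CPM) of 7 genes, 1 point for each line. CRELD2, P4HB, SSR4, KDELR3 and CREB3L1 are highest in L101P and HSPA5 is lowest there (-0.24), while HSP90B1 stays within -0.05 to 0.06.

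Other genes of the pathway were read from lists by function, and first in the interaction. That term called 2.39% of all genes tested, 1.61% higher and 0.775% lower. Of 29 other translocation and early secretion genes 2 were higher. KDELR3, a receptor that returns ER residents from the Golgi, was at 14.4 and 24.3 CPM in L101P and at 13.3 to 16.1 elsewhere (0.81, SE 0.18, edgeR adjusted p 0.0138). SSR4, of the translocon-associated complex, was at 105 and 153 CPM in L101P and at 104 to 128 elsewhere (0.63, SE 0.11, 0.00230). Of 16 other regulators CREB3L1, a relative of CREB3L2, was higher, at 2.71 and 14.1 CPM in L101P and 2.70 to 4.30 elsewhere (2.05, SE 0.30, 0.000266). Of 32 other ERAD and ER-phagy genes the receptor TEX264 was higher (0.59, SE 0.13, 0.0168), and of 27 other folding genes 0 were called.

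Over the lines, 5 of 27 other folding genes, 1 of 32 ERAD, 1 of 29 translocation, 1 of 16 regulator and 4 of 22 cytosolic heat shock genes were called, where 13% of all genes were. Against WT the prolyl isomerase FKBP11 was lower in L101P (-0.56, SE 0.12, edgeR adjusted p 0.0276), and the peroxiredoxin PRDX4 (-0.47, 0.0494) and the ATF6-cleaving protease MBTPS2 (-0.53, 0.0129) in E292V. In E690K the oxidase QSOX1 (0.39, 0.00915), the co-chaperone DNAJC1 (0.37, 0.0472) and the cargo receptor MCFD2 (0.30, 0.0300) were higher and the lectin MLEC lower (-0.28, 0.0374). L101P against both type 2 lines had FKBP11 lower (-0.63) and MBTPS2 (0.34) and the ER-phagy receptor CCPG1 (0.41) higher. Of the heat shock genes HSPA1B was lower in KO (-0.49, 0.0238) and HSPB1 in L101P (-0.33, 0.0427). HSPA1B has a near-identical copy, so its count is uncertain.

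Of 40 other integrated stress response genes tested, 19 were called over the lines, where 13% of all genes were. KO had 4 lower and 0 higher (1.8% of all genes called), led by NUPR1, a small stress-induced nuclear protein (-1.37, SE 0.29, edgeR adjusted p 0.0336), PHGDH, the first enzyme of serine synthesis (-0.93, SE 0.11, 0.00255), and the translation repressor EIF4EBP1 (-0.47, SE 0.09, 0.0170). L101P had 7 lower and 0 higher (3.94% of all), led by NUPR1 (-1.75, 0.00780), the lipoprotein receptor VLDLR (-1.33, 0.0301) and the stress cytokine GDF15 (-1.09, 0.00168). E690K had 4 lower and 2 higher (5.38% of all), led by NUPR1 (-2.35, 0.000835), GDF15 (-1.30, 0.000280) and the secreted glycoprotein STC2, which was higher (0.98, 0.0110). The other gene called higher in E690K was ATF3 (0.89, SE 0.18, edgeR adjusted p 0.0137). E292V had 0 called (1.05% of all) and 32 of 40 above 0. The medians were -0.15 for L101P, -0.14 for KO, -0.08 for E690K and 0.10 for E292V.

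PHGDH showed the same split as ASNS, at 39.0 and 35.4 CPM in WT and 54.2 and 50.2 in E292V, with 18.3 to 23.8 in the other 6 libraries. NUPR1 was at 8.40 and 10.7 CPM in WT and 9.23 and 15.3 in E292V, with 1.36 to 3.93 in the others. GDF15 did not, since E292V gave 76.7 and 66.1 CPM, below WT (122.5 and 82.1) and below untreated KO (87.7). STC2 did not either: it was at 25.8 and 30.9 CPM in E690K, 19.4 and 20.7 in E292V and 8.48 to 16.3 in the others. Against both type 2 lines L101P had 8 of 40 lower and 0 higher (5.79% of all genes called), led by VLDLR (-1.18), STC2 (-1.13, SE 0.17, edgeR adjusted p 0.00331) and PHGDH (-0.75, SE 0.10, 0.00180). In the interaction STC2 (-0.89) and the amino acid transporter SLC7A5 (-0.41) were lower and DDIT4, an inhibitor of mTORC1, higher (0.76, SE 0.16, 0.00951).

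**Figure D5:**
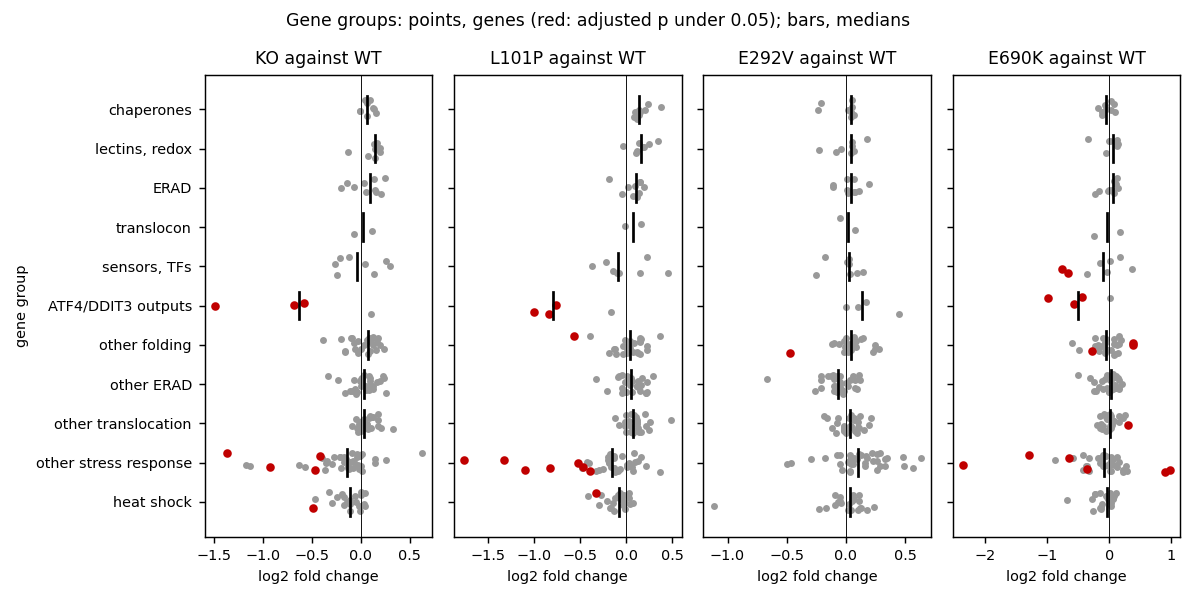
Log2 fold change against WT (horizontal axis) of the genes of 6 role groups and 5 further lists (vertical axis) in the 4 line contrasts, each point 1 gene, red where the edgeR adjusted p was under 0.05, with bars at the medians. The chaperone, lectin and oxidoreductase, ERAD and translocon groups hold no red point, and the outputs of ATF4 and DDIT3 hold 3 in KO, L101P and E690K.

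Read by promoter sequence, 11 of 39 genes held an ERSE or ERSE-II. Of these 0 were called against WT in KO, L101P or E292V, and XBP1 in E690K. Of the 28 without one, 4 were called in E690K, 3 each in KO and L101P, and 0 in E292V. Of all genes 5.38%, 1.8%, 3.94% and 1.05% were called in E690K, KO, L101P and E292V, and the difference between the promoter groups was not tested. These include ASNS and CHAC1, whose CARE cores are printed above, while TRIB3 and DDIT3 held none of the motifs in these windows. The median log2 fold changes of the 11 and the 28 were 0.13 and 0.09 in L101P, 0.07 and 0.06 in KO, 0.04 and 0.03 in E292V, and -0.05 and 0.0034 in E690K.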

How the data were processed

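Total RNA sequencing was done on 10 A549 libraries, 1 per line and treatment. The deposited values are raw counts per gene, which the authors made with featureCounts from Subread on GRCh38, and edgeR and limma are named too, per the submitters' processing notes. Versions, annotation and strand use are not given in the sources used here, so reads shared with pseudogenes (HSP90B1, ATF4) or antisense genes cannot be told apart. The counts were fitted in edgeR 4.0.16 (R 4.3.3) after filterByExpr, with trimmed mean of M-values factors of 0.972 to 1.03 and quasi-likelihood tests, Benjamini-Hochberg adjusted over all genes tested (threshold 0.05). Line plus vector (4 residual degrees of freedom) gave the line and vector comparisons, and an added vector by L101P term (3) the interaction. Error is thus departure from additivity among single libraries, which may be technical, and p-values measure only that spread. The standard error is the absolute log2 fold change over the square root of F. The additive fit alone was run on counts simulated from its own dispersion, for E690K against WT and the vector effect. Such counts cannot check the lack of replicates, the KO labels or the interaction fit.

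Even values made up 81.4% of counts from 1 to 10 and 51.5% of those above 1000, so mates may have been counted separately, and halved counts were an alternative. Depth per library was 59430095 to 96811421 counts. Libraries of a line are paired by cell line, and their deviations from the treatment means correlated over genes at 0.18 to 0.44 in the 5 lines, against at most 0.10 to 0.20 with another line; in WT both were 0.20. Exon lengths and gene coordinates are from GENCODE 29, promoters from RefSeq (GRCh38.p14).

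Members and lists were chosen with earlier results of these data known. The rule for named genes took 6 reporters (HSPA5, HERPUD1, DNAJB9, XBP1, ATF4, DDIT3), every called member, the 3 members furthest from 0 where fewer than 3 were called, and up to 3 called genes of each other list. Others named were chosen after their values were seen. Alternatives were DESeq2 1.42.0 size factors and tests, other filters, halved counts, exchanged KO labels, other terms or reference lines, and leaving out each library or pair.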

Additional observations from a re-analysis of the deposited data

Results flagged for a closer look

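The change with the vector was examined in 41 genes for a line far from the other 4, and about 1 in 20 such sets passes the limit by chance. SEC61A1 changed by 0.18 on the log2 scale in L101P and by -0.01 to 0.03 in the other lines, a gap of 0.777 of the range where the limit is 0.71. OS9 changed by -0.15 in E292V and by 0.02 to 0.08 in the others, a gap of 0.736. The interaction test of L101P against the other lines gave 0.16 for SEC61A1 (SE 0.10, edgeR adjusted p 0.503), and the E292V difference of OS9 was not tested. The change of P4HB across the labelled pair differed between L101P and the other lines by 0.39 in the interaction test.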

How the results depend on the processing

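Counts of called genes among the 42 moved by over 1.5 times in these cases. Without a filter on low counts they were 10 over the lines, 6 in L101P, 1 in E292V, 7 in L101P against the type 2 lines and 2 in the interaction. Of all genes 15.1%, 5.93%, 2.73%, 7.04% and 3.65% were then called. DESeq2 gave 14 over the lines (19% of all genes called), 7 in L101P (6.88%), 1 in E292V (2.4%) and 2 in the interaction (2.27%). Its size factors in edgeR gave 2 in the interaction (2.34%). The interaction gave 0 with at least 10 counts in every library (2.2% of all genes called), with halved counts (2.05%) and with the KO labels exchanged (1.41%). That exchange gave 3 in E690K (3.33%). L101P against E292V alone gave 7 (13.8% of all genes called) and against E690K alone 1 (0.69%). Leaving out 1 library or pair gave 3 to 14 over the lines, 1 to 5 in KO, 2 to 6 in L101P, 0 to 1 in E292V, 1 to 8 in E690K, 2 to 8 in L101P against type 2, 0 to 0 for the vector and 0 to 2 in the interaction. Over the lines the 14 came without the untreated L101P library and the 3 without the E690K pair, where XBP1 had adjusted p 0.396 (edgeR). Without the replicate block (line left out of the design) the vector called 0, as with it. TRIB3, ASNS and CHAC1 over the lines kept their calls under all 22 alternatives. Scaling by library totals moved 16 of 120 levels beyond their counting interval. Depth limits DERL3. The share of all genes called moved too: over the lines it was 15.1% without a filter, 19% in DESeq2, 23.8% where 14 were called and 7.39% where 3 were. Over the left-out libraries and pairs it was 0.131% to 6.43% in KO and 0.944% to 10.3% in L101P. In E690K and in L101P against type 2 the counts largely rose and fell with the share of all genes called. Over single libraries and pairs left out, that share was 0.883% to 11.2% in E690K and 0.0683% to 4.24% in E292V. In L101P against type 2 the 8 came with 13.8% and the fits with 2 came with 1.88% to 2.86%. With a whole pair left out, the share was 3.6% to 11.2% in E690K and 3.85% to 5.34% in L101P against type 2. In the interaction it was then 1.02% to 3.74%, and with a single library left out 1.02% to 3.95%. The cause of these shifts was not tested.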
